A study of Mus musculus with 39 samples.

Results

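The miRNAs described here are 7 that are typical of blood cells: mmu-miR-150, mmu-miR-223, mmu-miR-142-3p, mmu-miR-142-5p, mmu-miR-155, mmu-miR-146a and mmu-miR-451, written below without the prefix for mouse. They were chosen by name from the 650 miRNAs on the arrays, and miR-150 was singled out because it was higher with Wnt3a at day 1. That contrast is therefore given as a description, without a test. The samples were 39 Agilent 1-colour mouse miRNA arrays in 13 groups of 3. They held undifferentiated mouse ESCs, kept on mitomycin C-treated MEF feeders with LIF and serum, and ESCs taken off the feeders onto collagen and differentiated for 1, 3 or 5 days. The differentiated cells were untreated (control) or received Wnt3a at 50 ng/ml, Activin A at 100 ng/ml, or both together. All of them, controls included, were grown in RPMI medium with B27 and a supplement that the paper's methods name sodium butyrate. The paper's supplementary protocol for miRNA over-expression spells it "sodium byruate", so its identity is uncertain. The labels do not say whether the 3 arrays of a group came from separate cultures, so the p-values measure the spread between arrays, which may be technical.

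MiRNAs are short RNAs that bind mRNAs, mostly through a seed of bases near their 5′ end, and lower the output of those mRNAs. Several are made mainly in blood cells. MiR-142-3p and miR-142-5p come from the 2 arms of 1 hairpin and are found across leukocytes, miR-223 is a myeloid miRNA, miR-451 is made in erythroid cells, and miR-155 and miR-146a are induced in activated immune cells. MiR-150 is abundant in mature lymphocytes and is known to target Myb. Activin A and Wnt3a drive ESCs towards mesendoderm and endoderm, the layer that gives rise to gut, liver and pancreas.

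Mature sequences from RefSeq (GRCm38.p6) were found for 6 of the 7, and they are shown because their 6 seeds all differed, so that no pair of these members is grouped by a shared seed. Capitals mark the seed, bases 2 to 8 from the 5′ end. Beside the members, miR-144 is shown because its hairpin lies 99 bases from that of miR-451 on chromosome 11, and miR-146b because it has the seed of miR-146a.
miR-223: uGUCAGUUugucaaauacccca
miR-142-3p: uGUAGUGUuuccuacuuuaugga
miR-142-5p: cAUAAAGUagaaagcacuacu
miR-155: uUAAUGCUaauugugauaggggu
miR-146a: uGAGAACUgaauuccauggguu
miR-451: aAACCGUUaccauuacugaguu
miR-144: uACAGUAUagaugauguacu
miR-146b: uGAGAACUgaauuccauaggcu
MiR-223 lies at chrX:96242884-96242905 (plus strand) and miR-155 at chr16:84714143-84714165 (plus). The other 4 members with a sequence share chromosome 11, with miR-142-3p at chr11:87756903-87756925 (plus), miR-142-5p at chr11:87756867-87756887 (plus), miR-451 at chr11:78073186-78073207 (plus) and miR-146a at chr11:43374435-43374456 (minus).

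Detection set the members apart before any comparison of levels. The scanner software called a miRNA detected on an array from its probe signals, and wrote 0.1 where it did not. MiR-155 was detected on 35 of the 39 arrays, miR-223 on 25 and miR-150 on 19. MiR-142-3p was detected on 2 arrays, 1 of undifferentiated ESCs and 1 of Wnt3a at day 5. MiR-142-5p, miR-146a and miR-451 were detected on 0 arrays, as were 36.5% of the 650 miRNAs. Their probes stayed near background throughout, between -4.64 and -0.169 intensity units for the brighter probe of miR-142-5p, between -1.39 and 5.47 for that of miR-146a, and between -0.507 and 2.77 for that of miR-451. The defining pair of leukocyte miRNAs from the miR-142 hairpin and the erythroid miR-451 were thus not seen in any group of 3 arrays as a whole.

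**Figure D1:**
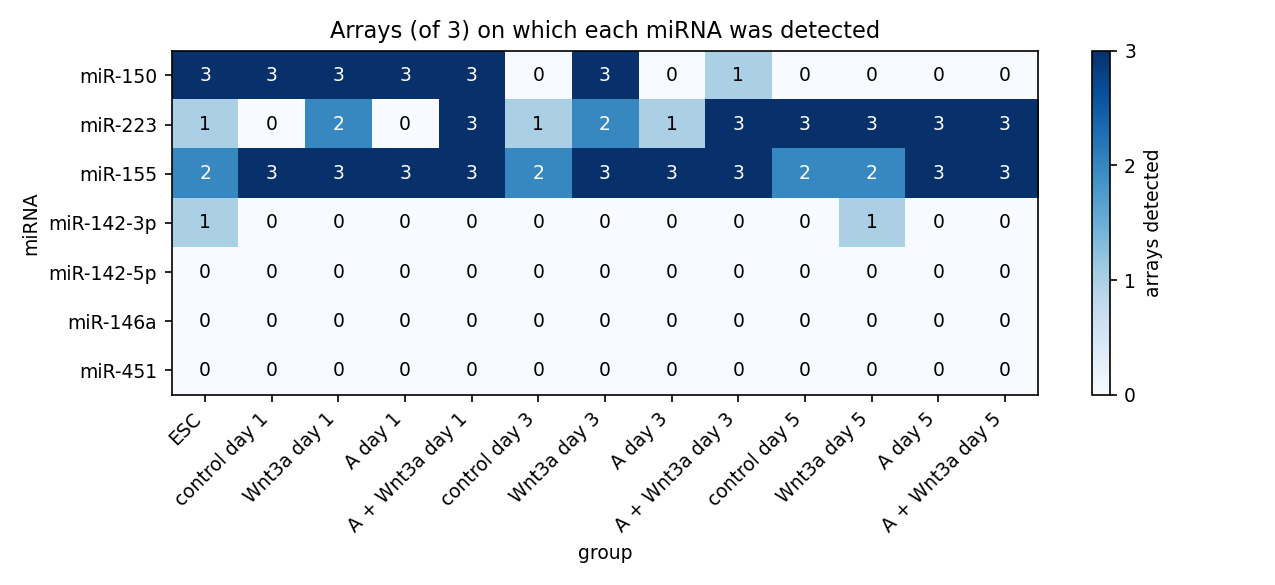
Number of arrays, of 3 per group, on which each of the 7 members was detected. MiR-150 was detected on every array of undifferentiated ESCs (ESC) and day 1, on 3 of 3 arrays of Wnt3a at day 3 and on 1 of 3 of Activin A plus Wnt3a (A + Wnt3a) at day 3, while miR-142-5p, miR-146a and miR-451 were at 0 in all 13 groups.

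A feature of the deposited total signal touches every value below. Each member was measured by 2 probes with 10 spots each, and the total of an array summed only the probes detected on it. Of 10796 detected values on the arrays, 29.4% were the sum of some of a miRNA's probes and 70.6% the sum of all. For miR-150, 1 probe entered the total in undifferentiated ESCs and in control and Activin A cells at day 1, and both probes entered it with Wnt3a and with Activin A plus Wnt3a at day 1. The probe signals are therefore given beside the totals, and each comparison was also made with all probes summed, detected or not. Detection also changed with time, as 183 to 249 miRNAs were detected per array in undifferentiated ESCs and at day 1, against 254 to 375 later. The lowest normalized signal that an array detected was 12.3 to 34.4 early and 2 to 11.3 later. The arrays lay on 5 slides. At day 1 the control arrays and Activin A replicates 1 and 2 shared slide 1, and the Wnt3a arrays, the Activin A plus Wnt3a arrays and Activin A replicate 3 shared slide 3.

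MiR-150 was present in undifferentiated ESCs and at day 1, highest with Wnt3a, and was lost from most groups by day 3. As deposited, its total signal was 21.8, 15.8 and 20.0 in undifferentiated ESCs and 17.4, 27.8 and 23.2 in day 1 control cells. It was 28.3, 18.5 and 38.3 with Activin A at day 1, 82.2, 115.4 and 98.2 with Wnt3a, and 80.3, 77.8 and 96.8 with Activin A plus Wnt3a. All 6 arrays that had received Wnt3a were above all 9 early arrays that had not. The Wnt3a and control arrays among them were those by which miR-150 was chosen, and the share of all miRNAs split in this way was not counted. At day 3 it was 10.4, 9.99 and 11.0 with Wnt3a, 7.33 on 1 array of Activin A plus Wnt3a, and undetected on the other 8 arrays. At day 5 it was undetected on all 12 arrays.

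After quantile normalization over the 39 arrays, the log2 level of miR-150 was 7.33 ± 0.04 (SD, n = 3) with Wnt3a and 7.08 ± 0.08 with Activin A plus Wnt3a at day 1, with no overlap between these neighbours. Activin A at 5.86 ± 0.15 and control at 5.83 ± 0.06 came next and overlapped. Undifferentiated ESCs stood at 5.57 ± 0.16 and Wnt3a at day 3 at 3.04 ± 0.05. The highest array of undifferentiated ESCs, at 5.74, lay below the lowest of control at day 1, at 5.78, but above the lowest of Activin A, at 5.71. The remaining 7 groups had at most 1 detected array and no order among them. Over the 13 groups, miR-155 (adjusted p = 1.11e-05) and miR-223 (adjusted p = 0.000788) differed by limma's F-test, as did 88.5% of the 373 miRNAs tested. No test is given for miR-150 there, since the 13 groups hold the contrast by which it was chosen.

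**Figure D2:**
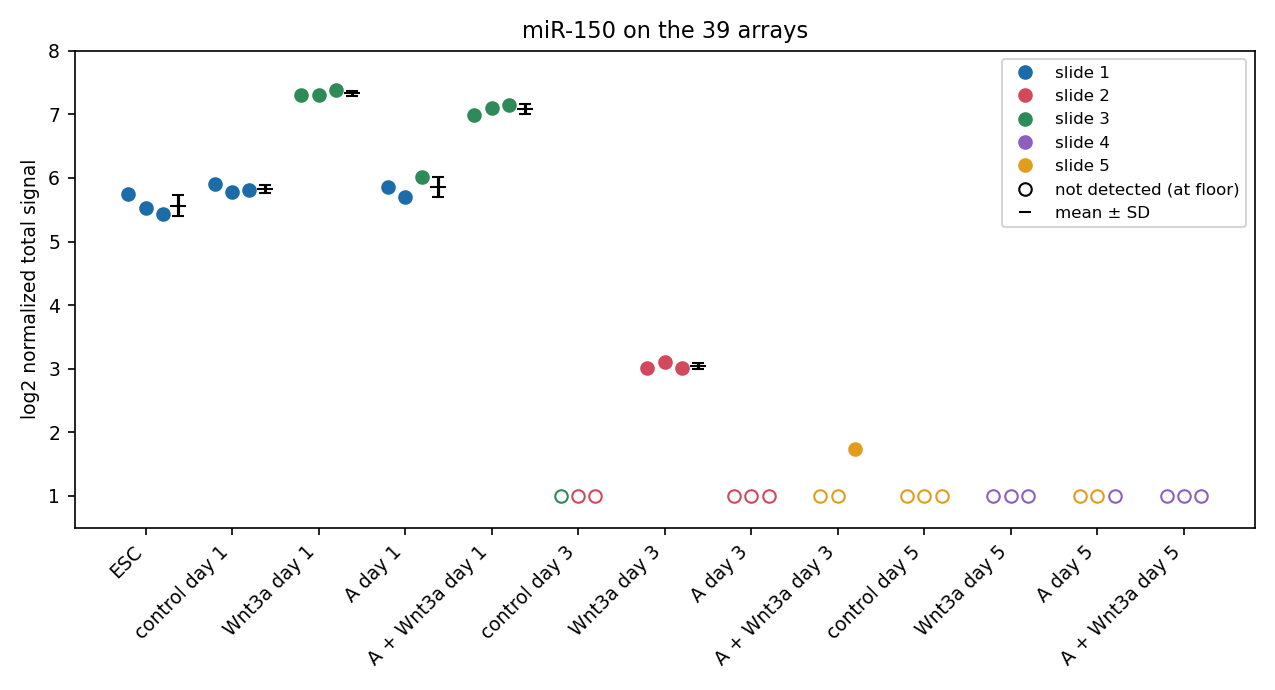
Log2 normalized total signal of miR-150 on each of the 39 arrays by group (A, Activin A), coloured by slide, with open points for arrays where it was not detected (drawn at the floor) and bars for mean ± SD of groups detected on 3 of 3 arrays. The 6 arrays with Wnt3a at day 1, with means of 7.33 (Wnt3a) and 7.08 (both factors), lie above the 9 other early arrays, and 1 array of Activin A at day 1 shares their slide at 6.01. MiR-150 was chosen by the Wnt3a and control arrays of day 1.

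The contrast by which miR-150 was chosen was 2.83-fold, a log2 difference of 1.503 between Wnt3a and control at day 1. Of the 240 miRNAs that passed the filter at day 1, 18.3% were over 2-fold higher with Wnt3a, most of them undetected on some arrays. Among the 171 seen on every one of the 12 arrays, miR-150 had the highest difference, followed by miR-290-5p at 1.17 and miR-292-5p at 0.82, both of the ESC miR-290 cluster. Summing both probes on every array gave 2.60-fold for miR-150. Its brighter probe read 63.0, 88.1 and 74.1 with Wnt3a and 17.4, 27.8 and 23.2 in control. The dimmer probe read 19.1, 27.4 and 24.1 with Wnt3a and 3.39, 8.09 and 6.09 in control, so each probe on its own separated the groups. All Wnt3a arrays lay above all control arrays in 21.2% of the 240 miRNAs. Activin A alone was 1.02-fold over control and Activin A plus Wnt3a 2.38-fold, on the same control arrays. All Wnt3a and all control arrays lay on different slides.

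Adding Wnt3a to Activin A raised miR-150 at day 1, on arrays that the choice of miR-150 did not use, although their levels were known when it was chosen. The brighter probe read 62.4, 59.9 and 73.9 with both factors and 28.3, 18.5 and 38.3 with Activin A. The dimmer probe read 17.9, 18.0 and 23.0 with both and 7.30, 5.41 and 12.1 with Activin A. The groups did not overlap at either probe. By total signal, 12.5% of the 240 miRNAs had all arrays of both factors above all of Activin A. The log2 difference was 1.22 (SE 0.08, 95% interval 1.05 to 1.40), or 2.33-fold, with a limma adjusted p = 2.15e-05. Of the 240 miRNAs tested, 0.833% were called, that is, changed over 2-fold with an adjusted p under 0.05, and these were miR-150 and miR-223. Against Activin A replicate 3, which shared the slide of the treated arrays, the difference was 1.07. The fit with slide as a term could only repeat this 1.07, since Activin A was the only group on both slides. It therefore rests on the same 1 Activin A array and is no second check. With all probes summed the difference from the Activin A group was 1.02 (limma adjusted p = 0.000216), and 0.84 against the Activin A array of the same slide. In the authors' processed matrix, 18 columns of Activin A and Activin A plus Wnt3a hold the values of the opposite treatment's scanner arrays, so that this difference was -1.26 with the matrix columns as named. The labels of the scanner arrays, whose file names carry the same treatments, were used.

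**Figure D3:**
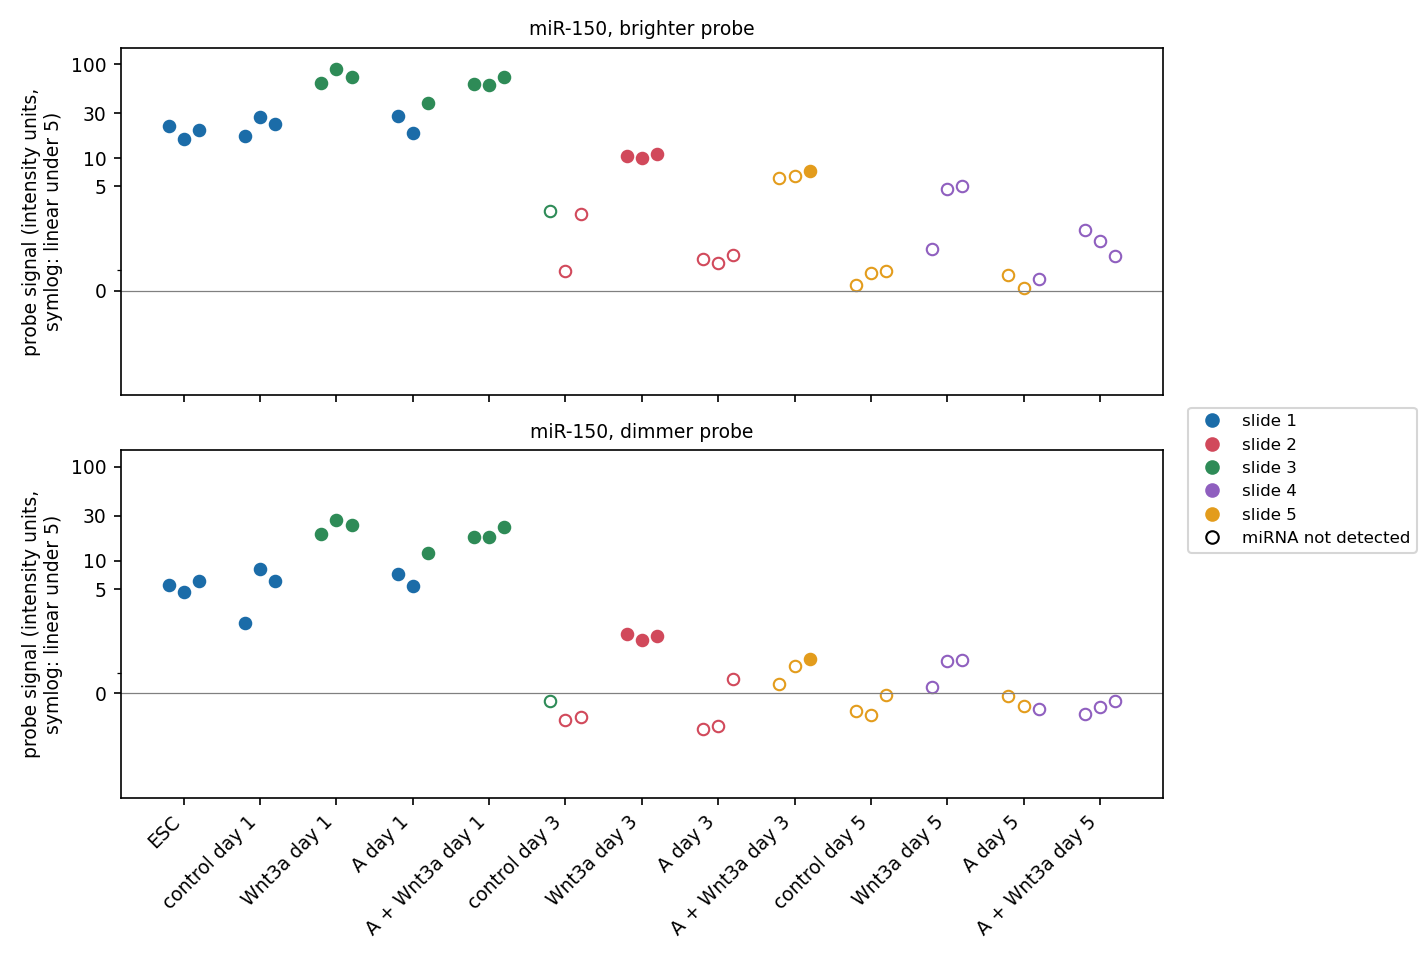
Signals of the brighter and the dimmer miR-150 probe on each array, in intensity units on a symlog axis that is linear under 5, coloured by slide, with open points where miR-150 was not detected. Both probes are higher on the Wnt3a and Activin A plus Wnt3a arrays at day 1 than on any other array, and at day 3 the brighter probe reads 9.99 to 11.0 with Wnt3a against 0.949 to 3.83 in control.

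At day 3 miR-150 was far below its day 1 level in every group, and the Wnt3a arrays were the highest. It was detected on 3 of 3 arrays with Wnt3a and on 0 of 3 in control, so the fold was at least 1.55 in normalized and at least 2.28 in deposited signal. The fitted log2 difference was 2.04 with control at the floor. MiR-150 passed the filter of that day through the Wnt3a arrays alone, so these values are a description, given without a test. Of the 326 miRNAs tested, 3.07% were called. The Wnt3a arrays shared slide 2 with control replicates 2 and 3. The brighter probe read 10.4, 9.99 and 11.0 with Wnt3a and 3.83, 0.949 and 3.70 in control, and with all probes summed the log2 difference was 2.22. With a floor of 8 it was 0.04, and with quantile normalization of log2 signals it was 0.00, as both groups then lay at the floor or within 0.05 of it.

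With Activin A, miR-150 was undetected on all 3 arrays at day 3, as in control. With Activin A plus Wnt3a it was detected on 1 of 3, and the fitted difference was 0.25 over control and 0.25 over Activin A (95% interval -0.13 to 0.63), where 3.99% of the 326 miRNAs were called. Below the detection limit the groups stood apart. The brighter probe read 6.13, 6.49 and 7.33 with both factors and 1.55, 1.33 and 1.70 with Activin A, and with all probes summed the log2 difference was 1.60. The 3 arrays of this group had a slide to themselves among those of the day, so treatment and slide cannot be told apart there. The interaction at that day, the effect of both factors minus the sum of the single effects, was -1.80 for miR-150, and 22.7% of the 326 miRNAs passed that test. It was -0.62 with all probes summed, -0.04 with a floor of 8, -0.03 with normexp and 0.00 with quantile normalization of log2 signals. The difference of both factors over Activin A was larger at day 1 than at day 3 by 0.98 (2.95% of 373 miRNAs passed), but smaller by 0.59 with all probes summed. The same contrast of days 1 and 5, which 6.17% passed, held both day 5 groups at the floor and only repeats the day 1 difference.

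At day 5 no array detected miR-150 and it was not tested. Its brighter probe read 1.98, 4.88 and 5.09 with Wnt3a and 0.258, 0.867 and 0.929 in control, and 2.93, 2.40 and 1.69 with Activin A plus Wnt3a against 0.761, 0.147 and 0.554 with Activin A. The sum of its probes was thus higher, without overlap, on the arrays with Wnt3a in 5 of 5 matched comparisons, that is, over control at days 3 and 5 and over Activin A at days 1, 3 and 5. This pattern, looked for after the values had been seen, was shared by 0.969% of the 413 miRNAs detected on any array, the others being miR-181c, miR-466h and miR-672. The day 5 values are all below detection and 2 of the 5 comparisons, both factors over Activin A at day 3 and Wnt3a over control at day 5, shared no slide.

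In untreated cells miR-150 fell steeply between day 1 and day 3. It was seen on 3 of 3 control arrays at day 1 and on 0 of 3 at day 3, a fall of at least 4.86-fold in deposited signal and at least 10.71-fold after normalization, and day 3 stood at the floor, so no test is given. Of the 373 miRNAs tested over the 39 arrays, 49.3% were called between these days, and 17.2% of the 373 were called lower. The brighter probe went from 17.4, 27.8 and 23.2 at day 1 to 3.83, 0.949 and 3.70 at day 3 and 0.258, 0.867 and 0.929 at day 5. From undifferentiated ESCs to day 1 the log2 level differed by 0.26 (SE 0.11), and by 0.20 to 0.60 over the settings tried, where 16.6% of the 373 miRNAs were called. No test is given for this difference, since the day 1 control arrays belong to the contrast by which miR-150 was chosen. Of the 155 miRNAs detected on all 15 arrays of undifferentiated ESCs and day 1, 1.94% were undetected on all 12 arrays of day 5, namely miR-150, let-7d and let-7i.

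The miRNAs whose level followed that of miR-150 most closely over the 39 arrays, among 143 detected on all of them, were miR-22 (Pearson r = 0.97), miR-29a (0.94), miR-29c (0.93), miR-467c (0.93) and miR-467b (0.92). These correlations join arrays of all days, so they mainly follow the drop after day 1, and at day 1 the 5 miRNAs differed between Wnt3a and control by -0.14 to 0.16 only. Over the 12 arrays of day 1 the closest were miR-295* (0.92), miR-292-5p (0.87), miR-294* (0.86), miR-140* (0.85) and miR-361 (0.85), of which miR-295*, miR-292-5p and miR-294* belong to the miR-290 cluster. The arrays of day 1 hold the contrast by which miR-150 was chosen, and these 5 miRNAs were 0.23 to 0.82 higher with Wnt3a than in control. Their correlations may thus follow that contrast, or slide, as all arrays with Wnt3a at day 1 shared a slide. Both sets share the arrays and the normalization.

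MiR-22 is also in the list of 7 fibroblast miRNAs used to follow feeder cells. The summed normalized signal of that list was 3538 to 4615 on the early arrays and 915 to 1888 at days 3 and 5, and 2 of its members were undetected on all 3 arrays of undifferentiated ESCs. At day 1 it was 4163 to 4221 in control and 4251 to 4615 with Wnt3a. Its part in the fall of miR-150 was not tested. The 8 miRNAs of the ESC list were detected on every array, with a sum of 35610 to 36830 on the early arrays, 18160 to 19380 in control at day 3 and 7877 to 8592 in control at day 5. In these bulk samples, fewer cells that make miR-150 and less miR-150 per cell cannot be told apart. Of the erythroid list, miR-451 and miR-144 were undetected on all 39 arrays and miR-486 was detected on 16, all at days 3 and 5.

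MiR-223, the myeloid miRNA, had a total signal that moved with Wnt3a at day 1, and its probe signals differed between slides within a group. At day 1 no control or Activin A array, of 6, detected it, against 2 of 3 with Wnt3a and 3 of 3 with Activin A plus Wnt3a. Its total read 11.9, 9.57 and 9.95 in the last group. It passed the filter through the arrays with Wnt3a alone, so its call against Activin A at the floor (limma adjusted p = 0.0261) supports no difference. Activin A replicate 3 was counted as undetected, yet its probes read 11.5 and 12.4, among the highest of the day, and it was the only Activin A array on slide 3. The other 2 Activin A arrays read 1.85 to 4.96, and the Activin A plus Wnt3a arrays 7.88 to 11.9. The sum of both probes differed by 0.53 (adjusted p = 0.198), and against the Activin A array on the same slide it was -0.19. The slide term raised the adjusted p to 0.208.

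**Figure D4:**
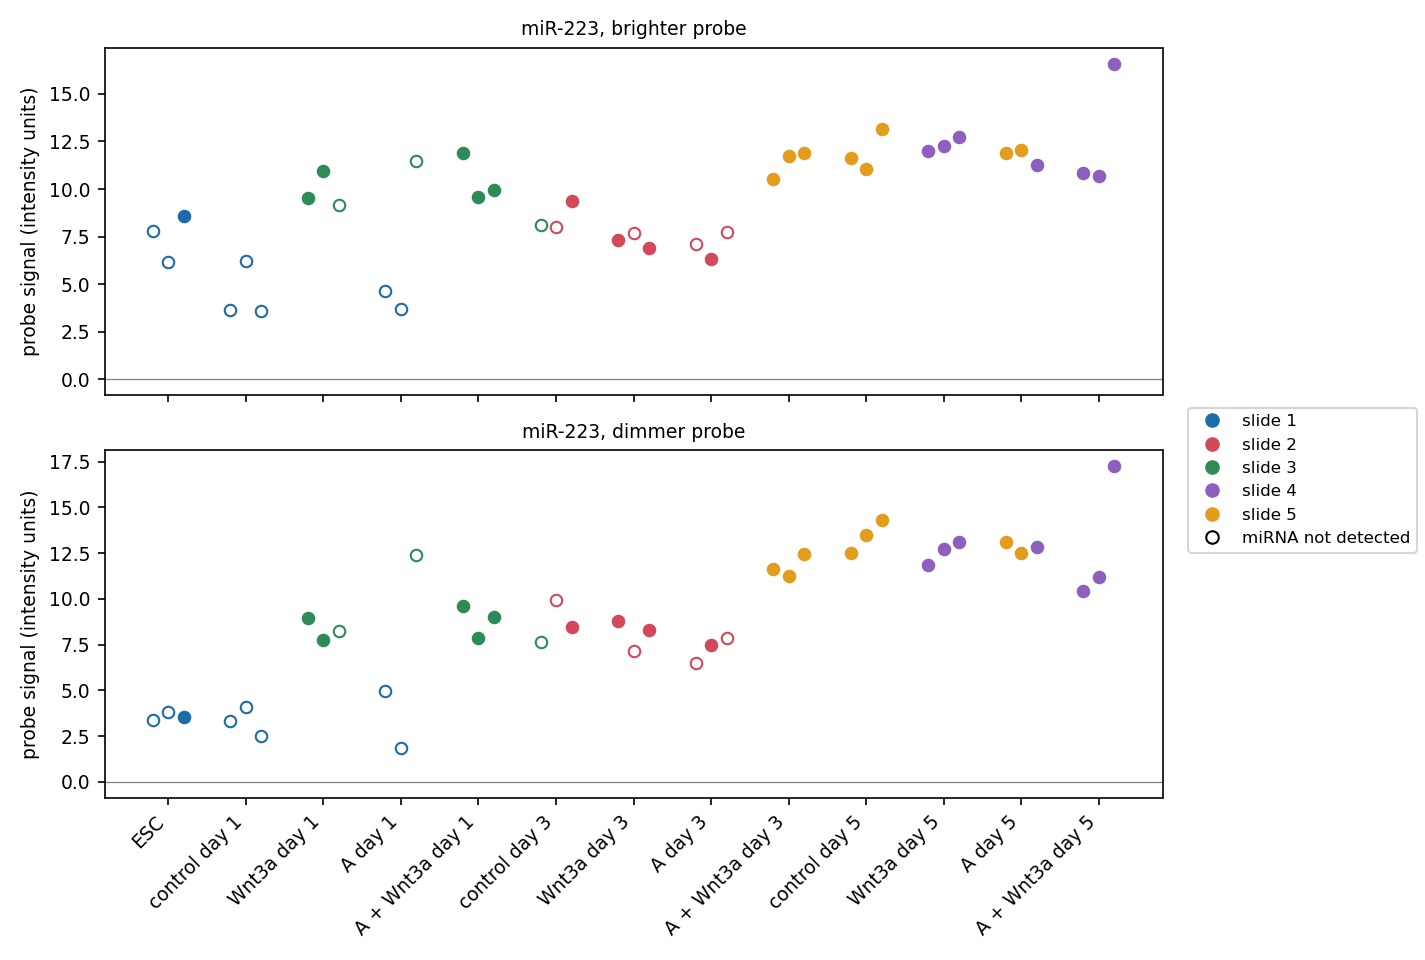
Signals of the brighter and the dimmer miR-223 probe on each array in intensity units, coloured by slide, with open points where miR-223 was not detected. The 2 Activin A arrays at day 1 on slide 1 read 1.85 to 4.96, while the third, on slide 3, reads 11.5 and 12.4 without being called detected.

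At day 3 miR-223 was detected on 1 of 3 arrays of control and of Activin A, on 2 of 3 with Wnt3a and on 3 of 3 with Activin A plus Wnt3a. The difference of the last group was 2.11 over control (limma adjusted p = 0.0521) and 2.37 over Activin A (adjusted p = 0.0602). Both probes were detected on those 3 arrays, and the total was 22.2 to 24.3, while 1 probe entered it on most of the other detected arrays of the day. Probe by probe, the Activin A plus Wnt3a arrays read 10.5 to 12.5 and the other arrays of day 3 read 6.35 to 9.96. Summing both probes gave a difference of 0.24 over control (adjusted p = 0.0475) and 0.42 over Activin A (adjusted p = 0.00755). MiR-223 passed the filter of that day through the groups with Wnt3a alone, so these p-values support no difference. No other array of day 3 shared the slide of the Activin A plus Wnt3a arrays. Wnt3a alone differed from control by 0.07 (adjusted p = 0.985), and by -0.41 with all probes summed (adjusted p = 0.0086). At day 5 miR-223 was detected on all 12 arrays, and 2.72% of 368 miRNAs were called between both factors and Activin A. None of the 4 comparisons of miR-223 had an adjusted or unadjusted limma p under 0.05, the differences lying between -0.42 and 0.30. Its interaction at day 5 was 0.72 (adjusted p = 0.575), and 3.26% of the 368 passed.

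Control cells showed no called change of miR-223 over time. The difference was -1.10 from undifferentiated ESCs to day 1 (limma adjusted p = 0.385), 0.94 from day 1 to day 3 (adjusted p = 0.346) and 1.88 from day 3 to day 5 (unadjusted p = 0.0298, adjusted p = 0.069; 18.5% of 373 miRNAs called). Summed over both probes, its log2 level was 4.56 ± 0.06 (SD, n = 3) in undifferentiated ESCs, 4.23 ± 0.24 in control at day 1, 4.04 ± 0.21 at day 3 and 4.14 ± 0.06 at day 5.

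MiR-155, which rises in activated lymphocytes and macrophages, was the most widely detected member and showed no called response to either factor in the main fits. At day 1 its total was 11.1, 13.9 and 12.2 in control, 10.9, 16.0 and 12.3 with Wnt3a, 16.5, 12.2 and 14.4 with Activin A, and 15.1, 13.9 and 17.1 with both. These groups overlapped. The difference of both factors over Activin A was -0.15 (95% interval -0.41 to 0.11, limma adjusted p = 0.464). At day 3 its differences from control lay between 0.36 and 0.94, with adjusted p from 0.145 to 0.545. Of 3 control arrays there, 2 detected it, with the undetected one at the floor. With slide as a term the difference with Activin A was 1.36 (limma adjusted p = 0.0489) and was called. That fit set aside control replicate 1, the only array of the day on slide 3. With a floor of 8 it was 0.27 (limma adjusted p = 0.0337), and with all probes summed 0.23 (adjusted p = 0.104). Summed over both probes, the mean log2 level of miR-155 was 3.86 in control, 3.96 for Wnt3a and 4.09 for Activin A. For both factors it was 3.69, so that difference changed sign. Both factors minus Activin A was -0.57 (limma adjusted p = 0.443). It was -0.40 with all probes summed (adjusted p = 0.0184) and -0.41 with a floor of 8 (adjusted p = 0.00867). Neither reached 2-fold. These groups shared no slide. At day 5 miR-155 differed from control by 1.01 with Activin A (unadjusted p = 0.0383, adjusted p = 0.0905) and by 0.94 with both factors (adjusted p = 0.0992). There, 2 of 3 control arrays detected it, with the undetected one at the floor, and the brighter probe read 8.53, 7.56 and 9.32 in control, 12.9, 11.6 and 10.5 with Activin A, and 11.9, 9.48 and 9.52 with both. Those probe readings are deposited signals without normalization. The arrays of both factors at day 5 shared no slide with control. With all probes summed, the difference from control with Activin A was 0.28 (limma adjusted p = 0.139). Of the 368 miRNAs tested at day 5, 25% were called with Activin A and 30.4% with both factors.

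In control cells miR-155 was lower at day 3 than at day 1, by 2.69 on the log2 scale (limma adjusted p = 0.000656), with 1 of 3 arrays undetected at day 3. The brighter probe read 11.2, 8.72 and 10.3 at day 3 against 11.1, 13.9 and 12.2 at day 1, and these overlapped. The sum of both probes fell by 1.21 (adjusted p = 4.01e-10). Raw signals thus differed less than normalized ones. With slide as a term the fall was 1.60 and was not called (adjusted p = 0.379), and with each day normalized apart it was 1.30 (adjusted p = 0.0642).

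Among other miRNAs of blood and immune cells, 11 of the 12 listed were on the arrays and 7 of the 11 passed the detection filter over the 39 arrays. MiR-144, miR-146b and miR-150* were detected on 0 arrays and miR-126-5p on 1. MiR-150* is the other arm of the miR-150 hairpin. MiR-342-3p and miR-221 were detected on all 39 arrays, miR-126-3p on 35 and miR-222 on 23. Of the 4 tested for Activin A plus Wnt3a over Activin A at day 1, 0 were called (1 had an unadjusted limma p under 0.05) and their median difference was 0.15, against 0.01 over all 240 miRNAs. Of the 6 tested at day 3, 0 were called with Wnt3a (2 had an unadjusted p under 0.05), and miR-222, a regulator of KIT in blood progenitors, stood 2.24 over control with Activin A and 2.89 over it with both factors, where 19% and 20.2% of all miRNAs were called. It was detected on 1 of 3 control arrays there and passed the filter through the arrays with Activin A alone, so no test is given.

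At day 5 the called miRNAs of this list were lower with Activin A, 2 of the 7 tested with Activin A alone and 3 with both factors, beside 25% and 30.4% of all miRNAs called. MiR-181a, which tunes signalling in developing lymphocytes, was lower by 3.66 with Activin A (log2 scale, limma adjusted p = 0.000279) and by 3.18 with both (adjusted p = 0.00063). It was detected on 2 of 3 arrays in each of these treated groups, with the undetected one at the floor. With all probes summed its mean log2 level was 5.14 in control, 2.79 with Activin A and 2.65 with both. MiR-342-3p was lower by 1.24 and by 1.15 (adjusted p = 5.86e-05 and 8.38e-05). MiR-486, an erythroid and muscle miRNA, was lower by 1.56 with both factors (limma adjusted p = 0.0229). It was detected on 2 of 3 arrays with both factors, with the undetected one at the floor. With all probes summed its mean log2 level was 3.45 with both factors against 4.02 in control, under a 2-fold difference. The median difference of the 7 was -0.11 in both comparisons, against -0.03 and 0.00 over all 368 miRNAs tested. With Wnt3a alone 0 of the 7 were called at day 5 (1 had an unadjusted limma p under 0.05), beside 3.8% of all miRNAs.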

How the data were processed

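Scanner output of 39 arrays was used. Feature Extraction, in version 10.7.3.1 by the headers of the deposited files and 9.5.3.1 by the submitters' processing notes, had subtracted the background and summed probes into total gene signals, which the authors deposited as intensity values without normalization between arrays. Detection flags and spot signals came from the same deposited files. The authors' deposited matrix of log2 values served as an alternative, as named and with each column matched to a scanner array by rank order. Here the totals were quantile normalized (limma 3.58.1, R 4.3.3), set to at least 2, and log2 transformed. Testing needed detection on 2 or more of the 3 arrays of some group in the fit. Groups came from the labels. Treatments were compared in a fit of the 12 arrays of a day, the 13 groups and the changes over time in a fit of 39, with limma and Benjamini-Hochberg adjustment over all miRNAs tested. Called means an adjusted p under 0.05 and over 2-fold. If no array of a group detected a miRNA, its fold was bounded from the lowest detected signals of those arrays, averaged on the log2 scale. Arrays detected 183 to 375 miRNAs, with a median background of 35 to 42 and 0 saturated spots, and 3 arrays per group limit the precision. The fits were tested on simulated data. Named miRNAs are the 7 members, 12 listed blood and immune miRNAs, and the 5 most like miR-150 by Pearson's r over all arrays and over day 1, and others were named after their values were seen. The members and lists were chosen with earlier results of these data known. Alternatives changed scaling, background correction, floor, filter, model, slide and replicate terms, and left out each array in turn. Summing all probes was added after seeing the data.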

Additional observations from a re-analysis of the deposited data

Results flagged for a closer look

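3 differences between conditions in miR-150 met a test of the difference itself, and all 3 rest on arrays set at the floor. At day 3 the effect of both factors minus the sum of the single effects was -1.80 on the log2 scale (SE 0.24, limma adjusted p = 0.00106; 22.7% of the 326 miRNAs tested passed). MiR-150 was undetected in control and Activin A there and passed the filter through the Wnt3a arrays alone. The value was -0.62 with all probes summed (adjusted p = 0.0492), -0.04 with a floor of 8 (adjusted p = 0.299), -0.03 with normexp (adjusted p = 0.456) and 0.00 with quantile normalization of log2 signals. The difference of miR-150 from Wnt3a in the presence of Activin A was larger at day 1 than at day 3 by 0.98 (SE 0.16, limma adjusted p = 0.000311; 2.95% of 373 passed), and with all probes summed it was instead smaller, by 0.59 (adjusted p = 0.0429). Against day 5 the value was 1.22 (adjusted p = 4.03e-06; 6.17% passed), which is the day 1 difference again, since both day 5 groups stood at the floor, so it measures no change. The arrays of both factors at day 3 shared their slide with no other array of that day.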

How the results depend on the processing

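All settings tried left miR-150 higher with Wnt3a at day 1, by 0.61 (normexp) to 1.62 (each day normalized apart), with 1.38 for all probes summed and 1.27 with a slide term, against 1.503. Wnt3a and control shared no slide at day 1, so the slide term took its value from the Activin A arrays, with 1 of them on slide 3. For Activin A plus Wnt3a over Activin A at day 1, miR-150 lost its call with the 75th percentile over all miRNAs (1.18, adjusted p = 0.0751) and with normexp (0.44, under 2-fold at an adjusted p under 0.05), and turned to -1.26 in the matrix as named, where miR-223 turned to -3.54 and the differences of miR-150 between day 1 and days 3 and 5 to -0.90 and -1.22.
Members called in that day 1 comparison numbered 0 with the 75th percentile over all miRNAs and with normexp, and 1 with each day normalized apart, all probes summed or a slide term, against 2. At day 3, Wnt3a called 0 with log2 quantile normalization, a floor of 8 or normexp, against 1. Activin A called 1 with a slide term, against 0. Both factors called 1 over control with each day apart, all probes summed or the stricter filter, and 1 over Activin A with either percentile scaling, log2 quantiles, a floor of 8 or all probes summed, against 0. The call with Activin A was of miR-155 (1.36, limma adjusted p = 0.0489). The calls with Wnt3a or with both factors were of miR-223 or miR-150, which passed the filter of that day through groups with Wnt3a alone. The interaction at day 3 passed in 2 with a floor of 8 and in 3 with all probes summed, against 1. In control, 1 was called from undifferentiated ESCs to day 1 with log2 quantiles, 0 (normexp) or 1 (each day apart, slide term) from day 1 to day 3, against 2, and 1 from day 3 to day 5 with either percentile scaling or each day apart, against 0. The difference of day 1 from day 3 passed in 0 members with either percentile scaling, the floor before normalization, or the matrix as named or matched, and turned to -0.59 for miR-150 with all probes summed. MiR-223 with Wnt3a at day 3 turned to -0.055 with normexp and -0.41 with all probes summed. The causes were not tested.
Leaving out single arrays moved members called from 2 to 1 to 2 in the day 1 comparison (1 without any of the Activin A plus Wnt3a arrays or Activin A replicates 1 or 2, miR-223 being lost), and to 0 to 1 in Activin A against control at day 3 (1 without control replicate 1) and day 5 (1 without Wnt3a replicate 1), both factors over control and over Activin A at day 3 (1 without Activin A replicate 2 or control replicate 3), control from undifferentiated ESCs to day 1 (1 without undifferentiated replicate 1 or 3) and from day 3 to day 5 (1 without Wnt3a day 1, control day 3 or undifferentiated replicate 3). The counts were 1 to 2 in the interaction at day 3 (2 without control replicate 2) and in day 1 against day 5 (2 without Wnt3a day 1 replicate 3 or undifferentiated replicate 3). Without control replicate 2, miR-155 with both factors over control at day 3 turned to -0.39, in a range up to 0.79. The day 1 difference of miR-150 stayed between 1.15 and 1.30 under the 12 omissions.
The replicate numbers gave no pairing: same-numbered arrays of a day correlated with a mean r of -0.01 to -0.09 in their deviations from the group means. With the replicate block the day 1 difference of miR-150 was 1.22 (adjusted p = 0.00018), and the block changed no call of a member. With a slide term, the comparisons of Activin A plus Wnt3a at day 3 could not be fitted. Signals near background limit miR-223, miR-155 and miR-150 after day 1.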
